A study of Mus musculus with 29 samples.

Results

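The NMDA and AMPA receptor subunits measured here were 10 genes chosen by symbol: Grin1, Grin2a, Grin2b, Grin2c, Grin2d and Grin3a for the NMDA receptor and Gria1, Gria2, Gria3 and Gria4 for the AMPA receptor. All 10 were found among the 48709 genes of each count table. The study lowered the activity of the microRNA miR-99b-5p with an inhibitor, anti-miR-99b, and compared it with a scrambled oligonucleotide, sc-control, by RNA-seq of 29 libraries in 3 experiments. In the first, the prefrontal cortex (PFC) of C57BL/6J mice aged 3 months received anti-miR-99b in lipid nanoparticles in 3 animals and sc-control in 3 others, and the tissue was taken 5 days later. In the second, primary microglia grown from CD1 pups at postnatal day 1 were given either oligonucleotide (n = 4 each). In the third, microglia prepared that way were treated for 48 h. They were then added to cortical neurons of CD1 embryos of embryonic day 17.5 (n = 7 for anti-miR-99b and n = 8 for sc-control). In the co-culture the oligonucleotide was thus given to the microglia, and the RNA came from all cells of the culture. The mice were male and 1 library came from each. The PFC was whole tissue, and the microglia were shaken off mixed glial cultures. The labels do not say which culture libraries came from separate preparations, so p-values measure the spread between libraries, which may be technical in part.

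Both receptors are channels opened by glutamate and carry most fast excitation in the cortex. AMPA receptors, built from the Gria subunits, give the rapid current, and the edited form of the Gria2 subunit keeps calcium out of the channel. NMDA receptors pair the obligatory Grin1 subunit with Grin2 or Grin3 subunits, open only when the membrane is already depolarised, and let in the calcium that starts many forms of synaptic plasticity. In the forebrain Grin2b is the main Grin2 subunit before birth and Grin2a rises during postnatal life.

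The microRNA that the inhibitor binds and its relatives are shown because the seed, bases 2 to 8 in capitals, is the stretch by which a microRNA recognises most of its mRNAs. The sequences are from RefSeq (GRCm38.p6), and the 3 family members share 1 seed.
miR-99b-5p (chr17:17830194-17830215, + strand): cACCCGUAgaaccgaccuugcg
miR-99a-5p (chr16:77598940-77598961, + strand): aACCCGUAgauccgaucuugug
miR-100-5p (chr9:41531437-41531458, + strand): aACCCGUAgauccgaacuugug

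An mRNA pairs with that seed through the letters TACGGGT, searched here on the transcript strand in the longest annotated 3' UTR of each protein-coding gene (GENCODE M21, GRCm38). Of the 10 members, Gria4 had a match, 1 in a 3' UTR of 2256 bases, and the other 9 had none. Across 21045 protein-coding genes 1.10% had a match, and among the 2804 with a 3' UTR of at least 3000 bases 2.67% had one. The 3' UTR of Grin2b, 18865 bases long, and that of Grin2a, 9929 bases long, held no such letters. The shorter letters ACGGGT, which pair with bases 2 to 7, occurred 2 times in Grin2b and 1 time each in Grin2a and Gria4. They occurred in no other member, and their share over all genes was not computed. The Gria4 match lies at chr9:4419304-4419310 on the - strand, in the 3' UTR of the gene. It is shown in capitals because it is the single match to bases 2 to 8 in the set.
Gria4 3' UTR: aaacctaaaagacTACGGGTc
A match of letters describes the sequence and was not measured as a binding site.

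Libraries held 21324156 to 37901110 reads assigned to genes. Of these, 58524 to 99213 fell on the 10 members in each PFC and co-culture library, and 1762 to 3690 in each microglia library. Levels are given as CPM, the reads of a gene per 1000000 reads of its library, scaled with edgeR's TMM factors within each table. Levels of different genes were compared after division by the length of all annotated exons (CPM per kb). Mature microRNAs are not counted in libraries of polyadenylated RNA, so whether the inhibitor lowered its target was not analysed here.

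The neuron and microglia lists followed the labels. The 14 neuron markers summed to 11351 to 12420 CPM in the PFC, 8819 to 9139 CPM in the co-cultures and 167 to 181 CPM in the microglia. The 12 microglia markers summed to 14333 to 15288 CPM in the microglia. No marker of any list was at 0 in any group, and the microglia cultures held 281 to 330 CPM of astrocyte markers and 280 to 330 CPM of oligodendrocyte lineage markers. The co-cultures also held 2514 to 2728 CPM of astrocyte markers and 438 to 512 CPM of oligodendrocyte lineage markers. Their 12 microglia markers summed to 145 to 209 CPM.

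In the PFC of sc-control mice the AMPA subunit Gria1 had the highest level per length, 68.6 ± 4.58 CPM per kb (SD, n = 3). Grin1, the subunit of every NMDA receptor, followed at 41.4 ± 2.71 CPM per kb and Gria2 at 41.01 ± 2.26 CPM per kb, and the ranges of these 2 overlapped. Gria3 stood at 34.8 ± 1.82 CPM per kb. Gria4 at 20.0 ± 0.886 and Grin2b at 19.2 ± 0.341 CPM per kb overlapped as well. Grin2c reached 11.9 ± 0.658 CPM per kb, Grin2a 10.4 ± 1.015, Grin3a 3.82 ± 0.126 and Grin2d, a subunit found mainly in interneurons and below the cortex, 2.35 ± 0.134 CPM per kb. The order depended on the length used: with the length of the longest transcript Grin1 came first at 93.8 CPM per kb, ahead of Gria1 at 74.7 CPM per kb.

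The neuron and microglia co-cultures had another order. In sc-control, Gria1 led at 86.5 ± 1.70 CPM per kb (SD, n = 8), followed by Gria2 at 61.4 ± 2.60, Grin2b at 25.2 ± 1.16, Grin1 at 20.96 ± 0.873, Gria4 at 17.2 ± 0.743, Gria3 at 8.65 ± 0.263 and Grin3a at 6.28 ± 0.207 CPM per kb. Grin2a, at 2.88 ± 0.175 CPM per kb, overlapped in range with Grin2d at 2.52 ± 0.224, and Grin2c was lowest at 0.786 ± 0.118 CPM per kb. With the length of the longest transcript Grin1 stood above Grin2b, at 47.6 against 26.1 CPM per kb.

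Set side by side, the sc-control libraries of the 2 neuronal experiments differed most for Grin2c, which had a mean of 59.9 CPM in the PFC and 3.96 CPM in the co-culture, 15.1 times less. Gria3 was 4.02 times and Grin2a 3.63 times lower in the co-culture. Grin3a, a subunit that lowers calcium entry through the receptor, was 1.64 times higher there, Gria2 1.498 times and Grin2b 1.31 times. The ranges of the sc-control libraries overlapped for Grin2d alone. The share of all genes with ranges apart was not computed, so this count has no background beside it. Each table was scaled on its own, so these levels were not tested between tables, and strain, age, culture and cell makeup cannot be told apart between the experiments.

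**Figure D1:**
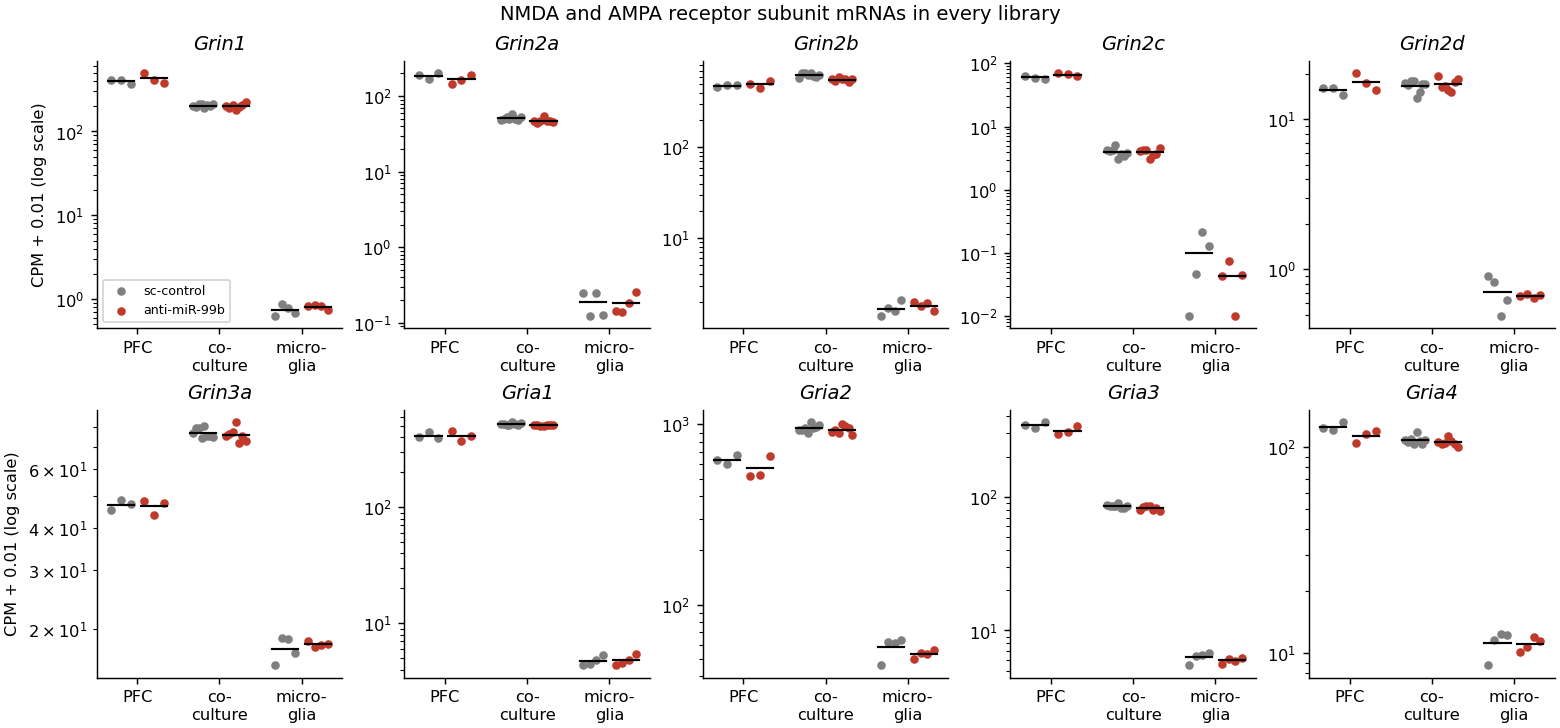
CPM of each of the 10 subunits in every library (y axis, log scale, 0.01 CPM added), by experiment and treatment, with a bar at each group mean (grey, sc-control; red, anti-miR-99b; PFC n = 3 and 3, co-culture n = 8 and 7, microglia n = 4 and 4). Microglia libraries sit below both neuronal experiments for all 10 genes, and Grin2c, Grin2a and Gria3 are lower in the co-culture than in the PFC.

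Shares within a library need no scaling between tables. Grin2b made up 43.8% ± 1.59 (SD, n = 3) of the Grin2 reads per length in the sc-control PFC, with a range of 42.1% to 45.3%, and 80.3% ± 0.849 (n = 8) in the sc-control co-culture, with a range of 79.1% to 81.6%. The groups did not overlap, and the difference of 36.5 percentage points had an exact two-sided permutation p of 0.00606, the smallest that 8 against 3 libraries allow (adjusted over 9 share comparisons, 0.0182). The ratio of Grin2b to Grin2a per length was 1.85 ± 0.2004 in the sc-control PFC and 8.78 ± 0.375 in the sc-control co-culture. Gria2 made up 24.95% ± 1.29 of the Gria reads per length in the sc-control PFC and 35.3% ± 0.622 in the sc-control co-culture, 10.4 percentage points more (exact permutation p = 0.00606, adjusted 0.0182). The NMDA subunits together held 35.1% ± 0.908 of the reads per length of all 10 members in the sc-control PFC and 25.2% ± 0.757 in the sc-control co-culture, in ranges that did not overlap.

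The other subunits also differed in share between the neuronal experiments. Grin1 made up 46.4% ± 1.87 of the Grin reads per length in the sc-control PFC and 35.7% ± 1.29 in the sc-control co-culture. Grin2c made up 13.4% ± 0.427 and 1.34% ± 0.190 in the same order, and Grin3a 4.29% ± 0.220 and 10.7% ± 0.394. Among the AMPA subunits, Gria3 made up 21.2% ± 1.07 in the sc-control PFC and 4.98% ± 0.131 in the sc-control co-culture, while Gria1 made up 41.7% ± 2.80 and 49.8% ± 0.601.

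**Figure D2:**
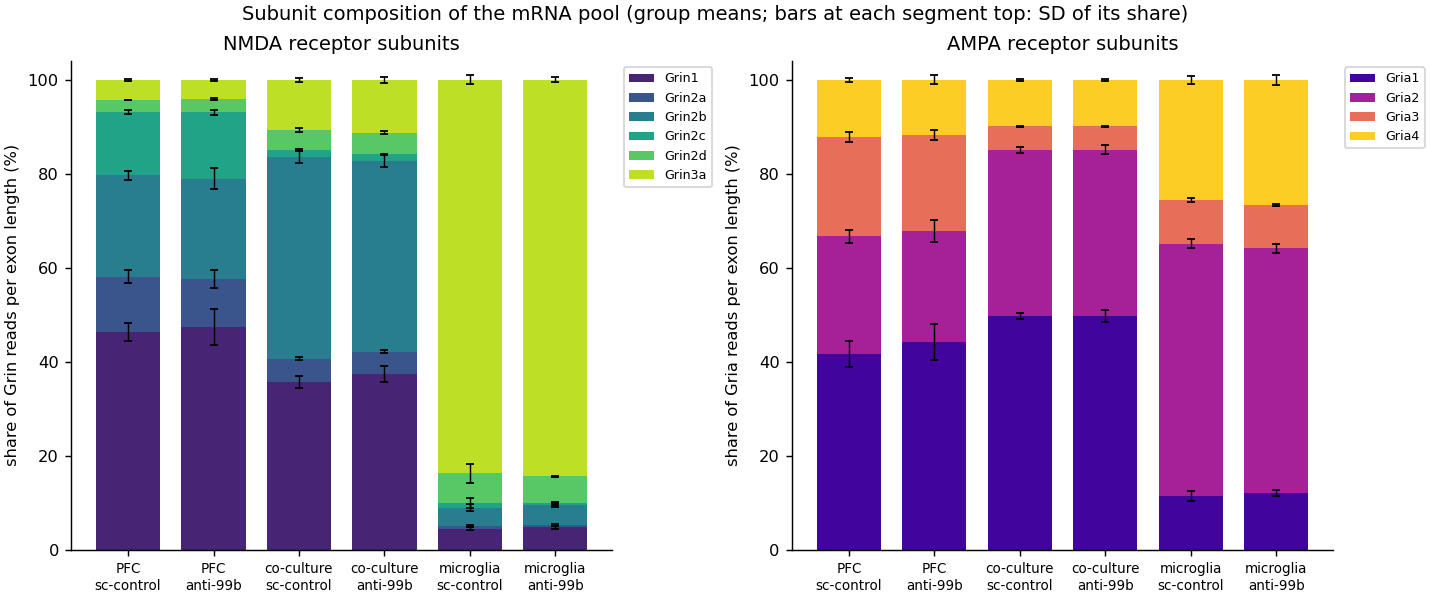
Share of each subunit in its family's reads per exon length (y axis, percent), as group means stacked by experiment and treatment, NMDA subunits on the left and AMPA subunits on the right, with the SD of each share drawn at the top of its segment. Grin2b takes 43.01% of the Grin total in the sc-control co-culture and 21.6% in the sc-control PFC, and Grin3a takes 83.7% in the sc-control microglia.

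In the co-culture, Grin2b mRNA was lower where the added microglia had received anti-miR-99b. Grin2b is the Grin2 subunit of the immature forebrain, with slow channel closing and a long tail that binds CaMKII. Its level ran from 579 to 656 CPM with a median of 630.2 CPM over the 8 sc-control libraries. Over the 7 anti-miR-99b libraries it ran from 525 to 589 CPM with a median of 562 CPM. Of the anti-miR-99b libraries, 6 lay below all 8 sc-control libraries, and replicate 5 at 589 CPM lay above the lowest of them. The group means were 557 ± 21.1 CPM and 627 ± 28.7 CPM. Grin2b fell by 0.17 on the log2 scale (SE 0.03, 95% interval -0.23 to -0.11), a change of -11.1%, with an edgeR quasi-likelihood p of 3.41e-06 and a Benjamini-Hochberg adjusted p of 0.0015 over 16193 genes, and ranked 36 by p-value. The exact two-sided permutation p on log2 CPM was 6.22e-04.

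Grin2b was the only member of the 10 past the threshold of the co-culture (adjusted p under 0.05 and a log2 change beyond 0.1), against 1.4% of all genes tested in either direction and 0.556% lower. None of the 10 had groups that did not overlap, against 0.58% of all genes. At an unadjusted p under 0.05 there were 3 members, Grin2b, Grin2a and Gria1, all lower, against 13.2% of all genes. Of the 10 members 9 had a log2 change below 0, with a median of -0.03, while 7842 of the 16193 genes tested were below 0 and their median was 0.00. Every member has over 5000 bases of exon, and longer genes were lower more often. Below 0 were 2939 of 5022 genes with 5000 to under 10000 bases, and 804 of 1062 with 10000 to under 15000. With a length trend removed from each library, Grin1 (0.00296), Grin3a (0.0132) and Gria2 (0.0122) stood above 0. Whether the members were lower more often than genes of their length was not tested.

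Within sequencing lanes Grin2b was lower in each of the 4 lanes. The log2 difference was -0.16 in lane 4 and -0.13 in lane 5, where 1 anti-miR-99b library, replicate 5, stood against 3 of sc-control. It was -0.13 in lane 6, with 1 library of each group, and -0.16 in lane 7. The labels give 1 batch for all libraries, and the lanes are those in the library names.

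Exon length moved with this result. Among genes tested in the co-culture, the median log2 change was 0.02 for the 9651 genes with under 5000 bases of exon and -0.06 for the 413 genes with 15000 bases or more, of which 363 were below 0. Grin2b has 24842 bases of exon, and 11 of those 413 genes had a lower log2 change. With a length trend removed from each library, Grin2b stood at -0.102 in place of -0.17 (edgeR adjusted p = 0.0342). That is only just past the fold minimum of 0.1. The part of length in the change of Grin2b was not tested further.

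**Figure D3:**
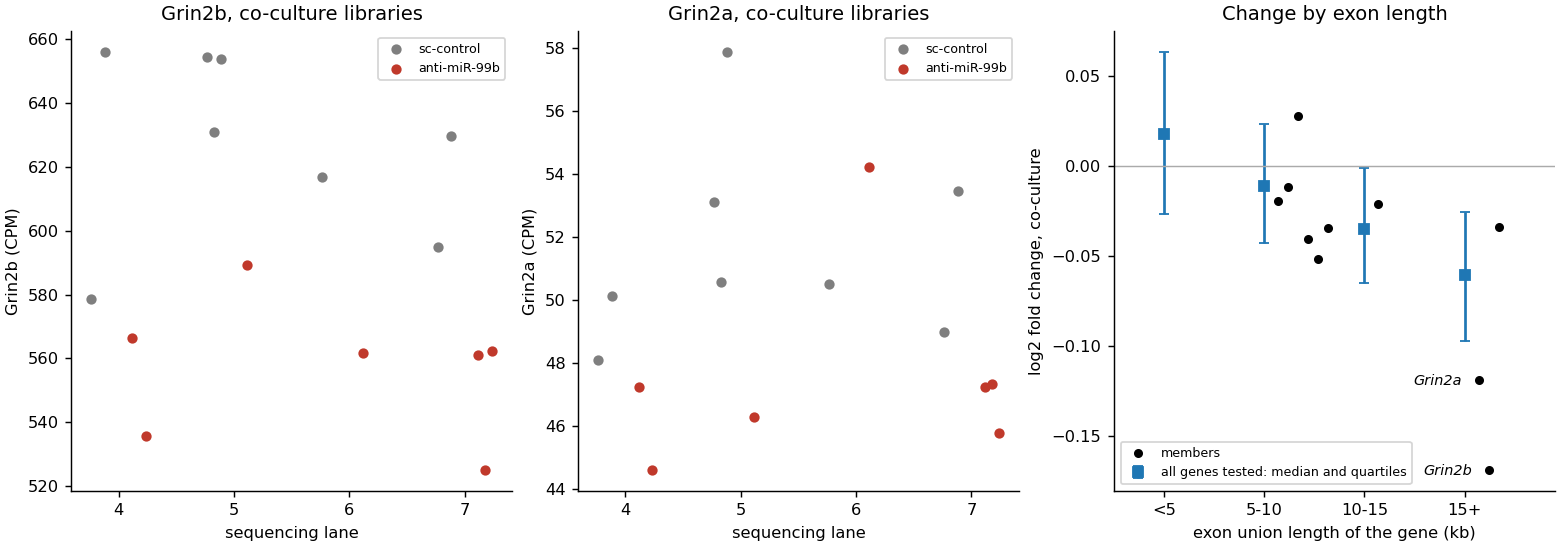
CPM of Grin2b (left) and Grin2a (middle) in each co-culture library by sequencing lane (x axis; grey, sc-control; red, anti-miR-99b), and log2 fold change in the co-culture by exon length of the gene in kb (right; blue, median and quartiles of all genes tested; black, the 10 members). Grin2b is lower after anti-miR-99b on average in every lane, Grin2a is higher in lane 6, and both lie below the lower quartile of genes with 15 kb of exon or more.

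The other Grin2 subunits gave smaller or less certain differences. Grin2a, the subunit of the mature cortex with faster channel closing, ran from 48.1 to 57.9 CPM (median 50.5) in sc-control and from 44.6 to 54.2 CPM (median 47.2) after anti-miR-99b. Of the 7 anti-miR-99b libraries 6 lay below all sc-control libraries, and replicate 7 at 54.2 CPM lay above 7 of the 8. The log2 change of Grin2a was -0.12 (SE 0.04, 95% interval -0.20 to -0.04), with an edgeR p of 0.00599 and an adjusted p of 0.15, and it was not called. Without anti-miR-99b replicate 7 it was -0.15 with an edgeR adjusted p of 0.0176, and with 1 RUVs factor it was -0.13 with an adjusted p of 0.00306, past the threshold in both. With the length trend removed it was -0.07 with an edgeR adjusted p of 0.475. By lane the log2 difference of Grin2a was -0.10, -0.21, 0.10 and -0.13 in lanes 4 to 7.

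Grin2c, low in the co-culture at 3.10 to 5.04 CPM in sc-control, had a log2 change of -0.01 with an interval of -0.20 to 0.18. Grin2d had 0.03 with an interval of -0.09 to 0.15. Grin1, needed in every NMDA receptor, had -0.02 with an interval of -0.09 to 0.05, and Grin3a had -0.02 with an interval of -0.08 to 0.04. These intervals bound the changes of Grin1 and Grin3a more closely than those of the 2 rarer subunits.

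Grin2b also made up a smaller share of the Grin2 reads. The share per length was 78.9% ± 0.859 (range 77.9% to 80.0%, n = 7) after anti-miR-99b and 80.3% ± 0.849 (range 79.1% to 81.6%, n = 8) in sc-control. The difference was -1.40 percentage points (exact permutation p = 0.00901, adjusted over 9 share comparisons 0.0203). The ranges overlapped. With reads not divided by length the difference was -0.607 percentage points (exact permutation p adjusted over the same comparisons 0.0227). The ratio of Grin2b to Grin2a was 8.49 ± 0.570 after anti-miR-99b and 8.78 ± 0.375 in sc-control, in overlapping ranges. Grin2b has 24842 bases of exon, Grin2a 17933, Grin2d 6658 and Grin2c 5037. The share was not computed with the length trend removed, so the part of length in this difference was not tested.

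The AMPA subunits of the co-culture did not pass the threshold. Gria1 ran from 512 to 539 CPM in sc-control and from 498 to 516 CPM after anti-miR-99b, and 4 of the 7 anti-miR-99b libraries lay below all sc-control libraries. Its log2 change was -0.04 (SE 0.02, interval -0.08 to -0.00), with an edgeR p of 0.0376 and an adjusted p of 0.338. Gria3 had -0.05 (SE 0.03, edgeR adjusted p = 0.406), and 4 of 7 anti-miR-99b libraries lay below all sc-control libraries. Gria2 had -0.03 (interval -0.09 to 0.03) and Gria4, the gene with the seed match, had -0.03 (interval -0.09 to 0.03). The Gria2 share of the Gria reads was 35.4% ± 1.04 after anti-miR-99b and 35.3% ± 0.622 in sc-control (exact permutation p = 0.817). The NMDA share of all member reads was 24.6% ± 0.938 and 25.2% ± 0.757 in the same order, in overlapping ranges.

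Fewer neurons and less RNA per neuron cannot be told apart in bulk RNA. The 14 neuron markers summed to 8997 ± 61.0 CPM after anti-miR-99b and 8998 ± 102 CPM in sc-control of the co-culture. Relative to the mean log2 level of these markers, Grin2b was 0.77 ± 0.06 after anti-miR-99b and 0.95 ± 0.05 in sc-control on the log2 scale. The difference was -0.18 (exact permutation p = 3.11e-04, adjusted p over 16193 genes = 0.0381). For Grin2a the difference was -0.13 (exact permutation p = 0.00839, adjusted 0.164), for Gria1 -0.05 (0.0151, adjusted 0.222) and for Gria3 -0.06 (0.0211, adjusted 0.257). These 4 of the 10 members had an exact p under 0.05, against 13.6% of all genes tested.

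Microglia markers moved with the groups of the co-culture. The 12 markers summed to 198 ± 7.88 CPM (range 185 to 209) after anti-miR-99b and 163 ± 14.6 CPM (range 145 to 187) in sc-control, 0.29 higher on the log2 scale, with 6 of 7 anti-miR-99b libraries above all sc-control libraries (exact permutation p = 4.66e-04). By gene, 11 of the 12 markers had a log2 change above 0, while Itgam was lower at -0.24 (edgeR adjusted p = 0.385) and not called. Of the 12 markers 7 were called higher. Those of lowest p were Cd68, a lysosomal protein of phagocytes, at 0.43 (edgeR adjusted p = 3.01e-05), the complement genes C1qc at 0.33 and C1qa at 0.34, and Csf1r, the receptor on which microglia depend, at 0.34. Of the 14 neuron markers 1 was called, Eno2, a glycolytic enzyme, higher by 0.14 (edgeR adjusted p = 0.0197). Those sums were 1.32% and 1.11% of the sums in the microglia cultures themselves, whose Grin2b level was 1.37 to 2.05 CPM. Their part in the change of Grin2b was not tested.

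In the PFC no subunit passed the threshold (adjusted p under 0.1 and a log2 change beyond 0.2), against 0.0864% of all 17364 genes tested. The log2 changes of the 10 members ran from -0.16 to 0.18, inside that fold minimum, so none could be called at any p. The co-culture change of Grin2b, -0.17, would lie inside it too. No member had an unadjusted edgeR p under 0.05, against 7.64% of all genes, and the DESeq2 Wald test called none either. The adjusted p-values of the 10 members ran from 0.66 to 0.993. Without anti-miR-99b replicate 3, 6 members had an unadjusted edgeR p under 0.05, against 17.2% of all genes in that fit, and with sequencing lane as a block 5 had, against 13%. With 1 RUVs factor 5 had, against 2679 of 17364 genes. With no low-count filter 3 had, against 2559 of 31281 genes. With neuron-marker factors 2 had, against 1716 genes, and with upper-quartile factors 1, against 1438 genes. In the other alternatives no member had. None passed the threshold in any of these fits. Of the 10, 4 had a log2 change above 0 and 6 below, with a median of -0.01 against 0.00 over all genes.

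Grin2b in the PFC stood at 467, 481 and 483 CPM in sc-control and at 496, 449 and 537 CPM after anti-miR-99b. The anti-miR-99b mice lay on both sides of the sc-control mice. The log2 change was 0.05 (SE 0.08, interval -0.12 to 0.22, edgeR adjusted p = 0.878). Grin2a stood at 193, 167 and 202 CPM in sc-control and at 147, 162 and 194 CPM after anti-miR-99b, with overlap, and its log2 change was -0.16 (interval -0.40 to 0.08). Grin2b made up 44.1% ± 1.96 of the Grin2 reads per length after anti-miR-99b and 43.8% ± 1.59 in sc-control (exact permutation p = 0.8, where 3 against 3 mice cannot go below 0.1).

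Gria4 was the only subunit whose PFC groups did not overlap, where 13.3% of all genes tested had groups that did not. It stood at 124, 122 and 132 CPM in sc-control and at 105, 116 and 120 CPM after anti-miR-99b, so all 3 treated mice were lower. The log2 change was -0.15 (SE 0.07, interval -0.31 to 0.01), with an edgeR p of 0.0657 and an adjusted p of 0.66, and -0.09 without anti-miR-99b replicate 1. The other AMPA subunits also had values at or below 0: -0.16 for Gria2 (interval -0.39 to 0.06), -0.13 for Gria3 (interval -0.30 to 0.03) and -0.00 for Gria1 (interval -0.20 to 0.19). For Gria2 and Gria3, 2 of the 3 anti-miR-99b mice lay below all sc-control mice.

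The NMDA subunits Grin1, Grin2c and Grin2d had values above 0 in the PFC. Grin1 stood at 416, 416 and 371 CPM in sc-control and at 495, 416 and 378 CPM after anti-miR-99b, with the highest value in replicate 1, for a log2 change of 0.10 (SE 0.10). Grin2c, a subunit rich in astrocytes and some interneurons, had 0.14 (SE 0.07, edgeR adjusted p = 0.667), and Grin2d had 0.18 (SE 0.11, edgeR adjusted p = 0.675). Grin3a had -0.01 (interval -0.17 to 0.14). The NMDA share of all member reads per length was 37.6% ± 1.89 after anti-miR-99b and 35.1% ± 0.908 in sc-control, in overlapping ranges. In the same mice 11 of the 12 microglia markers had a log2 change above 0, with none called, and they summed to 727 to 801 CPM after anti-miR-99b and 556 to 748 CPM in sc-control (exact permutation p = 0.2). The neuron markers summed to 11351 to 12037 CPM and 11860 to 12420 CPM in the same order. Their part in these values was not tested.

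**Figure D4:**
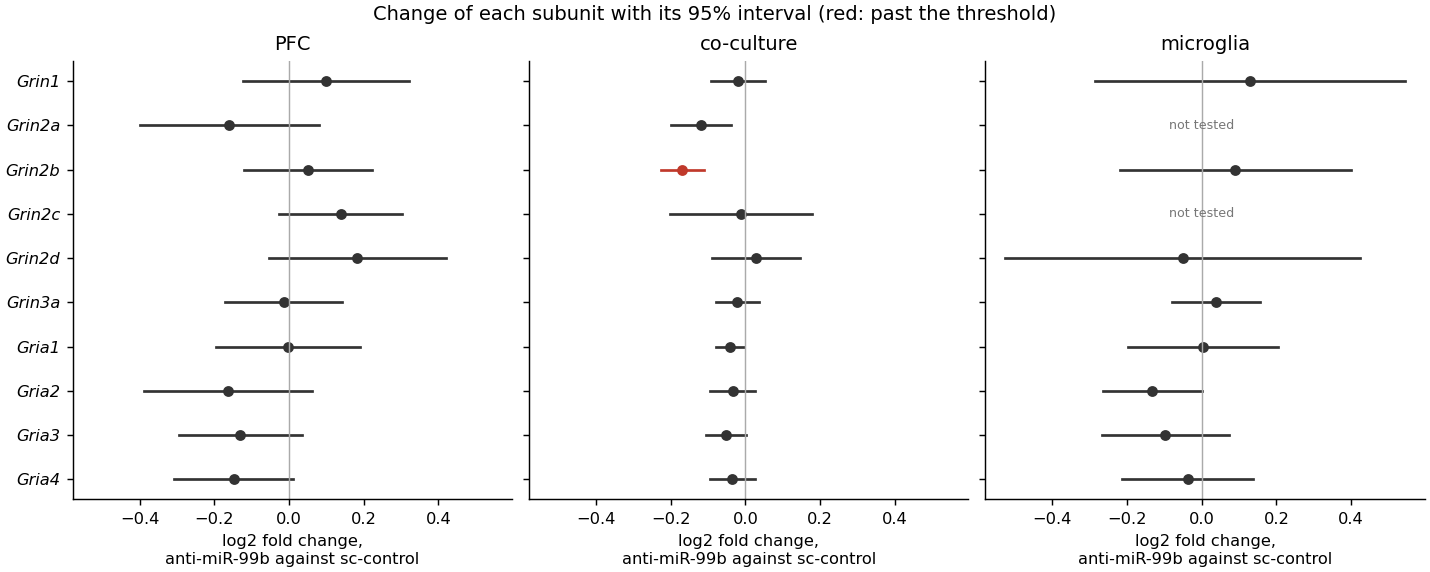
Log2 fold change of anti-miR-99b against sc-control (x axis) for each of the 10 subunits (y axis) with its 95% interval from edgeR, in the PFC, the co-culture and the microglia. Grin2b in the co-culture is the one value past the threshold of its own experiment, at -0.17, and its PFC interval runs from -0.12 to 0.22. The fold minimum was 0.2 in the PFC and 0.1 in the co-culture and the microglia.

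The responses of the PFC and the co-culture were compared in 1 fit of their 21 libraries. The change of Grin2b was 0.20 lower on the log2 scale in the co-culture than in the PFC (SE 0.07, interval -0.34 to -0.07), with an edgeR p of 0.00494 and an adjusted p of 0.152 over 18321 genes. For Gria4 the co-culture change was 0.13 higher than that of the PFC, with an edgeR p of 0.0462 and an adjusted p of 0.315. No member passed an adjusted p of 0.05, against 0.448% of all genes (82 genes), and 2 members and 2829 genes had an unadjusted p under 0.05. A difference of the response between PFC and co-culture was therefore not detected for any subunit after adjustment.

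The microglia cultures served as the reference with few neurons, and their subunit reads were low. In sc-control, Gria2 had the highest level at 3.74 ± 0.523 CPM per kb (SD, n = 4), followed by Gria4 at 1.78 ± 0.270 and Grin3a at 1.42 ± 0.125, the latter 2 overlapping in range. With the length of the longest transcript Grin3a stood above Gria4, at 2.33 against 2.06 CPM per kb, and Gria3 above Gria1, at 1.21 against 0.857 CPM per kb. Gria1 stood at 0.786 ± 0.0735 and Gria3 at 0.641 ± 0.0589 CPM per kb. Grin2d, Grin1 and Grin2b lay between 0.0551 and 0.135 CPM per kb and overlapped with one another, and Grin2c and Grin2a were lowest at 0.0178 and 0.0098 CPM per kb. Grin1 had 13 to 23 reads a library in sc-control, Grin2a 3 to 7 and Grin2c 0 to 6, so that Grin2a and Grin2c had too few reads to be tested. Grin3a made up 83.7% ± 0.972 of the Grin reads per length, and Gria2 53.7% ± 0.994 of the Gria reads per length. These levels stood beside 171 to 181 CPM of neuron markers and the oligodendrocyte lineage markers above, and which cells held the reads was not tested.

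After anti-miR-99b no subunit of the microglia passed the threshold used (adjusted p under 0.1 and a log2 change beyond 0.1), against 0.488% of 14953 genes tested. None of the 8 tested members had an unadjusted edgeR p under 0.05, against 6.45% of all genes, and none had groups that did not overlap, against 3.44%. DESeq2 called none as well. Gria2 stood at 45.9, 61.7, 61.5 and 63.2 CPM in sc-control and at 50.1, 54.1, 53.4 and 56.0 CPM after anti-miR-99b. The first of the sc-control values, replicate 2, was the lowest of all 8 libraries, and the other 3 lay above every anti-miR-99b library. The log2 change of Gria2 was -0.13 (SE 0.06, interval -0.27 to 0.00), with an edgeR p of 0.0513 and an adjusted p of 0.772. Without sc-control replicate 2 it was -0.22 with an edgeR adjusted p of 0.00125, past the threshold. With all 8 libraries it also passed with 1 RUVs factor (-0.12, edgeR adjusted p = 0.0655). Blocking on replicate number gave -0.20 (edgeR adjusted p = 0.012), also past the threshold. That log2 change comes from replicates 3 and 4 alone, so sc-control replicate 2 does not enter it.

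Grin3a, the NMDA subunit with most reads in microglia, stood at 15.5, 18.7, 18.6 and 16.8 CPM in sc-control and at 18.3, 17.6, 17.9 and 18.0 CPM after anti-miR-99b. The anti-miR-99b libraries lay inside the sc-control range, and the log2 change was 0.04 (interval -0.08 to 0.16). Gria4 stood at 8.73, 11.6, 12.4 and 12.2 CPM in sc-control and at 10.1, 10.7, 12.0 and 11.5 CPM after anti-miR-99b, with a log2 change of -0.04 (interval -0.21 to 0.14). Wide intervals went with the low counts of Grin1 (-0.29 to 0.54) and Grin2d (-0.53 to 0.42).

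Around the receptor, the 12 AMPA receptor auxiliary subunits, which set the trafficking and gating of the AMPA receptor, had no gene past the threshold in any experiment. In the co-culture 5 had a log2 change above 0 and 7 below, with a median of -0.03, and 3 had an unadjusted p under 0.05, against 13.2% of all genes. The lowest p among them belonged to Shisa6, which slows AMPA receptor desensitisation. Shisa6 had 59.9 ± 2.05 CPM after anti-miR-99b and 64.6 ± 3.03 CPM in sc-control, a log2 change of -0.11 (SE 0.03, edgeR adjusted p = 0.0726). The next was Shisa7 at -0.07 (edgeR adjusted p = 0.205). In the PFC 6 of the 12 had a log2 change above 0 and 6 below, and in the microglia 8 of the 10 tested were above 0, with a median of 0.08.

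Of the 7 kainate and delta receptor subunits, the other families of ionotropic glutamate receptors, none was called. All 7 had a log2 change below 0 in the co-culture, with a median of -0.04, where 7842 of the 16193 genes tested were below 0. Whether they were lower more often than genes of their length was not tested. Grik3, a kainate receptor subunit, had 79.7 ± 2.71 CPM after anti-miR-99b and 85.1 ± 1.60 CPM in sc-control. Its log2 change of -0.10 (SE 0.02, edgeR adjusted p = 0.0373) was inside the fold minimum, at -0.096. Grik2 had -0.05 (edgeR adjusted p = 0.461). In the PFC 3 of the 7 were above 0 and 4 below, and in the microglia also 3 and 4.

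Of the 7 metabotropic glutamate receptors none was called in the PFC or the co-culture, nor among the 3 tested in the microglia. Grm5 had the lowest p in the co-culture, with -0.06 (edgeR adjusted p = 0.335). The 9 genes of glutamate handling and receptor editing had none called. Adarb1, the enzyme that edits the Gria2 mRNA, had -0.05 in the co-culture (edgeR adjusted p = 0.217), and Slc1a1, a neuronal glutamate transporter, had -0.22 in the PFC (edgeR adjusted p = 0.648). Of the 8 NMDA receptor partners 7 were tested in the PFC and the co-culture, where Grin3b had too few reads, and none was called. All 7 had a log2 change below 0 in the co-culture, with a median of -0.03, where 7842 of the 16193 genes tested were below 0. These too were not tested against genes of their length. The lowest p belonged to Neto1, a protein bound to NMDA receptors, at -0.07 (edgeR adjusted p = 0.348), and to Dlg2, a scaffold of the postsynaptic density, at -0.05 (edgeR adjusted p = 0.352).

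The gene whose centred log2 profile over the 29 libraries was closest to each member was found among 14836 genes. For Grin2b it was Elmod1, at a root mean square difference of 0.18, for Grin2a Sv2b (0.15), for Grin1 Spock2 (0.11), for Grin2c Egr4 (0.19), for Grin2d Dlg3 (0.14) and for Grin3a Ubqln2 (0.07). For Gria1 it was Dync1i1 (0.09), for Gria2 the kainate receptor subunit Grik2 (0.08), for Gria3 Camkk1 (0.11) and for Gria4 Strbp (0.08). These libraries come from 3 experiments that differ in cell type.

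The members lie on several chromosomes of GRCm38. Grin2b spans chr6:135713233-136173511 and Grin2a chr16:9567898-9995560, both on the - strand, and Gria2 spans chr3:80681450-80802835 on the - strand. Grin1 overlaps the antisense gene Grin1os in exons, Grin2b overlaps Gm14329 and Gm26653, and Grin2d overlaps Gm45441, each on the opposite strand. The strand setting of the counting is not given in the sources used here, so reads of these overlaps cannot be assigned with certainty.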

How the data were processed

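Polyadenylated RNA was sequenced as single reads of 50 bases. As deposited, each table holds the raw count of reads per gene, made by the authors with STAR 2.5.2b (mm10) and featureCounts 1.5.1 per the submitters' processing notes. The annotation release and strand setting are not given in the sources used here. Of 48709 identifiers 48349 had a GENCODE M21 symbol. Groups came from the treatment labels, and replicate numbers and lanes from library names.

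Each experiment was tested alone with edgeR 4.0.16 in R 4.3.3 (filterByExpr, TMM, quasi-likelihood test, two-sided, Benjamini-Hochberg adjustment over all genes tested). The PFC and co-culture thresholds are the study's, and the microglia threshold was set here. SE is the size of the log2 change divided by the square root of F. Intervals are at 95%. Shares (percent) and levels relative to markers (log2 of CPM + 0.5) were compared by exact two-sided permutation tests. Alternatives were DESeq2 1.42.0, other scaling factors and filters, lane and replicate blocks, a length trend, RUVs and leaving out each library. The procedure was tested on simulated counts.

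The members and gene lists were chosen with earlier results of these data known. All 10 members are named. From each other list the text names at most 4 called genes of lowest p or, with none called, the 1 or 2 of lowest p. No 2 libraries of a group agreed within sampling noise (lowest chi-square per degree of freedom 1.48). The lowest values for sc-control and anti-miR-99b were 1.48 and 1.97 in the co-culture and 1.83 and 1.64 in the microglia. Between the mice of the PFC they were 7.51 and 9.32. Culture libraries thus differed less beyond sampling noise, and whether they were technical replicates was not tested. Some list genes are not reported here.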

Additional observations from a re-analysis of the deposited data

Results flagged for a closer look

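Of 46 groups of 4 to 10 libraries examined for a library far from the rest, 3 had one, and chance alone flags about 1 in 20 groups. Grin2a was highest in anti-miR-99b replicate 7 of the co-culture, at 54.2 CPM, while the other 6 libraries ran from 44.6 to 47.3 CPM. Gria4 was highest in sc-control replicate 6 of the co-culture, at 118 CPM. Gria2 was lowest in sc-control replicate 2 of the microglia, at 45.9 CPM, where the other 3 libraries ran from 61.5 to 63.2 CPM. No member's response differed between the PFC and the co-culture past an adjusted p of 0.05.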

How the results depend on the processing

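Grin2b was called lower in the co-culture in all 26 alternatives, with log2 changes from -0.19 to -0.10 and edgeR or DESeq2 adjusted p from 9.47e-06 to 0.0342, the last with the length trend removed. The count of members called in the co-culture was 2 with RUVs, and 1 to 2 when each library was left out (2 without anti-miR-99b replicate 7). In the microglia it was 1 with RUVs (Gria2, -0.12) and 0 to 1 when each library was left out (1 without sc-control replicate 2). In the PFC it was 0 throughout. Replicate numbers did not pair the libraries: deviations of same-numbered libraries correlated at -0.358 to 0.0744. The replicate block takes its log2 changes only from numbers found in both groups. These were 2 and 3 in the PFC, 2, 5, 11 and 12 in the co-culture, and 3 and 4 in the microglia. With the replicate block Gria2 was called in the microglia (count 1, -0.20, edgeR adjusted p = 0.012). There Grin2d stood at 0.0307 and Grin3a at -0.0768, Grin1 stood at -0.0655 in the PFC and 0.0337 in the co-culture, and Grin2c at 0.00544 in the co-culture, all turned in sign. The block did not change the count of members called in the PFC or the co-culture.

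Values near 0 turned in sign elsewhere, none past a threshold, and the cause was not tested. In the PFC Grin3a stood at 0.0233 with upper-quartile factors, 0.0145 with the length trend removed and 0.0408 with neuron-marker factors, and Gria1 at 0.0352 with upper-quartile and 0.0519 with neuron-marker factors. In the co-culture Grin2c stood at 0.00929 with the lane block, and with the length trend removed Grin1 stood at 0.00296, Grin3a at 0.0132 and Gria2 at 0.0122. In the microglia Gria1 stood at -0.00162 with upper-quartile factors, -4.68e-04 with at least 10 reads in every library and -9.40e-04 with the length trend removed.

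With reads not divided by length, the Grin2b share of Grin2 differed by -0.607 percentage points in the co-culture and 1.74 in the PFC, in place of -1.40 and 0.351, and the NMDA share by -1.30 in the co-culture in place of -0.607. Between the sc-control groups the Grin2b share then differed by 25.1 points in place of 36.5. The Gria2 share differed there by 15.2 in place of 10.4, and the NMDA share by -6.91 in place of -9.91.

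Leaving out each library turned the sign of other small log2 changes. In the PFC Grin1 ran from -0.0109 to 0.183, Grin2b from -0.0148 to 0.113, Grin3a from -0.0403 to 0.0254 and Gria1 from -0.0765 to 0.0595. Others there kept their sign and moved by over 1.5 times: Grin2a ran from -0.278 to -0.070, Grin2d from 0.0835 to 0.268, Gria2 from -0.291 to -0.094 and Gria4 from -0.188 to -0.0932, each lowest in size without anti-miR-99b replicate 1 and highest without replicate 3. In the co-culture Grin1 ran from -0.0490 to 0.00588, Grin2c from -0.0510 to 0.0388 and Grin2d from -0.00689 to 0.0545. In the microglia Grin2d ran from -0.198 to 0.0624, Grin3a from -0.00333 to 0.0725, Gria1 from -0.0633 to 0.0699 and Gria4 from -0.123 to 0.00681. In the same way the Grin2b share of Grin2 ran from -0.568 to 1.39 percentage points in the PFC, from -1.59 to -1.21 in the co-culture and from 35.7 to 37.3 between the sc-control groups. The Gria2 share ran from -2.63 to -0.225 in the PFC, from -0.168 to 0.295 in the co-culture and from 9.71 to 11.0 between the sc-control groups. The NMDA share ran from 1.64 to 3.46, from -0.846 to -0.452 and from -10.4 to -9.47 in the same order. Without any 1 sc-control mouse the adjusted p of the Grin2b and Gria2 share contrasts between the sc-control groups was 0.05, since fewer mice allow no smaller p. Depth limits Grin2a and Grin2c in the microglia, with at most 7 reads a library.

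Counts over all genes moved more. In the PFC 15 genes were called higher and 0 lower, against 76 and 8 with DESeq2, 297 and 115 with no low-count filter, 73 and 4 with the lane block, 475 and 43 with the replicate block, 192 and 92 with RUVs, and 1 to 195 higher with a library left out. In the co-culture 137 were higher and 90 lower, against 85 and 36 with the lane block, 70 and 23 with the replicate block, 284 and 236 with RUVs, 93 and 18 with the length trend removed, and 89 to 159 higher and 49 to 141 lower with a library left out. In the microglia 65 were higher and 8 lower, against 35 and 5 with DESeq2, 138 and 29 with no low-count filter, 87 and 162 with the replicate block, 118 and 42 with RUVs, and 0 (without sc-control replicate 4) to 234 higher (without sc-control replicate 2) with a library left out.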
